A study of Mus musculus with 15 samples.

Results

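The insulin, PI3K-AKT, mTOR and AMPK signalling genes were followed in cultured mouse cardiomyocytes as a list of 46 genes, from the insulin receptor to the AMPK subunits, out of 14337 genes in the expression table. The members were taken by gene symbol and not by a cutoff on their values, but the list was chosen with earlier results of these data known. They were sorted into steps by their place in the pathway. These were the receptor and its adaptors (10 genes), PI3K (7 genes), AKT and its targets (13 genes), mTOR (12 genes) and AMPK (4 genes). The mTOR step includes the kinases Mknk1 and Mknk2, which are not subunits of an mTOR complex. All 46 were found, all 46 encode proteins, and all 46 passed the filter on low values, a mean log2 RPKM of at least 0, that left 12848 genes for testing. RNA-Seq was performed on primary cardiomyocytes from whole hearts of wild-type C57/BL6 pups aged 1 to 3 days, which after 5 days in culture spent 24 h in medium with 0.5% FBS, received the agents in growth medium on day 6 and again a day later, and were lysed on day 8. There were 3 control libraries, labelled as treated with saline and without either agent (S1, S2 and S3). Another 4 had 1 µM angiotensin II (AngII, in S5, S6, S7 and S8). Cilengitide at 20 nM, the low dose called ldCil, was given in 4 (S9, S10, S11 and S12). Both agents at those doses were given in 4 (AngII + ldCil, in S13, S14, S15 and S16). AngII is a peptide hormone that enlarges cultured cardiomyocytes, and cilengitide is a cyclic peptide made to bind αvβ3 integrin. The comparisons asked how the expression of the pathway differs with AngII, with ldCil, and with ldCil added to AngII. Neither the labels nor the methods say that libraries of a group came from separate cultures, so the p-values stand for the scatter of these 15 libraries alone, part or all of which may be technical. Whether the growth medium held insulin is not given in the sources used here.

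Insulin binds a receptor tyrosine kinase, which marks the docking proteins IRS1 and IRS2. These recruit the lipid kinase PI3K, whose product brings AKT to the membrane, and AKT in turn holds back GSK3, the TSC complex and the FOXO transcription factors and promotes glucose uptake, glycogen synthesis and mTOR activity. AMPK, the kinase that senses low energy, acts against mTOR through TSC2 and raptor. In the heart the pathway is known for its part in glucose use and in growth of the muscle cell. Most of its control is by phosphorylation, which RNA levels do not show.

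Each value is a log2 RPKM, scaled by the authors to transcript length and library size and normalised by conditional quantiles (cqn), so levels of different genes can be set side by side. Sequencing depth is unknown, since the values are not counts. In bulk samples, fewer cells of a type and less RNA per cell cannot be told apart. The mean of 8 cardiomyocyte marker genes was 10.3 to 10.6 in the 15 libraries, so the labelled cell type was present throughout, but fibroblast markers were also high, at 6.46 to 8.58. Libraries also differed in ways that only partly cut across treatment. An interferon mean was taken over 22 interferon-induced genes, each centred on its mean over the libraries. It lay between 2.14 and 2.77 in S1, S3, S5, S9 and S10. In S2 it was 0.398, and in the other 9 it lay between −1.92 and −0.44. All AngII + ldCil libraries, at −1.86 to −0.44, lay below all control libraries, at 0.398 to 2.77. Of the 46 members, 27 had their lowest value of all libraries in the AngII library S5 and 16 their highest in the AngII + ldCil library S16, against 21.8% and 16.3% of all genes tested. S5 also had the highest macrophage marker mean, 4.90, and S16 the lowest fibroblast and macrophage marker means, 6.46 and 2.05. The cardiomyocyte marker mean was lowest in S16 too, at 10.34. Its epicardial marker mean, 3.59, was below only that of S11, 4.02. In AngII + ldCil against AngII, 5 of 6 endothelial markers had values above 0 and 1 below, with a median log2 difference of 0.50 and 1 at an unadjusted limma p under 0.05, and all 6 macrophage markers were below 0, with a median of −0.38 and 0 at that threshold. The endothelial marker mean was 2.02 to 2.52 in AngII and 2.32 to 3.55 in AngII + ldCil libraries, highest in S13. The part of cell makeup and of the interferon genes in the results was not tested.

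The pathway was well expressed at every step. The median of the members' mean levels was 4.78 log2 RPKM against 3.85 for all genes tested, and 39 of the 46 lay above that median. Within the receptor step the adaptor Grb10, which binds the receptor and restrains it, was highest at 7.40 and Irs2 lowest at 4.03. Among PI3K genes the lipid phosphatase Inppl1, which removes a phosphate from the PI3K product, was at 7.89, the highest of all members, and the regulatory subunit Pik3r3 was at 3.08. In the AKT step Akt1 was highest at 6.93 and Phlpp2, a phosphatase that acts on AKT, was lowest of all members at 2.16. The mTOR step ran from 3.45 for Mlst8, a subunit of both mTOR complexes, to 5.66 for Rheb, the small GTPase that switches mTOR on. The AMPK step ran from 4.22 for Prkab1, a beta subunit, to 6.29 for Prkaa2, a catalytic subunit. Outside the list, the beta subunit Prkab2 was at 6.10 and the gamma subunits Prkag2 and Prkag3 at 6.21 and 2.94. The gamma subunit in the list, Prkag1, was at 5.42.

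Genes that encode versions of the same enzyme were ordered alike in every library for some pairs. Akt1 exceeded Akt2 in 15 of 15 libraries, by a mean of 1.02 on the log2 scale (SD 0.180), and the S6 kinase gene Rps6kb1 exceeded Rps6kb2 in 15 of 15 by 0.79 (SD 0.143). Prkaa2 exceeded Prkaa1, the other catalytic AMPK subunit, in all 15 libraries, where Prkaa1 minus Prkaa2 had a mean of −1.62 and a range from −2.25 to −0.845. Foxo1 lay below Foxo3 throughout, with a mean difference of −1.44, Mknk1 below Mknk2, with −1.12, and Phlpp1 above Phlpp2, with 1.88. Neighbours in level without a fixed order were Irs1 and Irs2 (Irs1 higher in 7 of 15 libraries, mean difference 0.03, SD 0.700), Pik3ca and Pik3cb (8 of 15), Pik3r1 and Pik3r2 (7 of 15) and Gsk3a and Gsk3b (4 of 15). In 30 exact permutation tests of these 10 differences over AngII against control, ldCil against control and AngII + ldCil against AngII (2-sided, 35 or 70 assignments), the smallest p was 0.0571, for Prkaa1 minus Prkaa2, which went from −1.44 with AngII to −2.00 with AngII + ldCil. Its Benjamini-Hochberg adjusted p over the 30 was 0.931, and no pair reached an adjusted p of 0.05. Limma, run on the same differences as an alternative, called none either. Its 2 unadjusted p under 0.05 were 0.0135 for Prkaa1 minus Prkaa2 in AngII + ldCil against AngII, with an adjusted p of 0.405, and 0.0444 for Irs1 minus Irs2 in AngII against control, with an adjusted p of 0.666.

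The members' spread over the libraries was low for most and high for a few. Their median SD was 0.237 on the log2 scale against 0.292 for all genes tested, and 12 of the 46 exceeded the latter. Akt2, with an SD of 0.078, varied least and Irs1, with 0.589, most. Treatment groups accounted for a median of 16.8% of a member's variance, near the 18.3% of all genes tested. Mknk2 (59.7%), Insr (52.6%), Irs2 (49.5%) and Prkaa2 (49.4%) had the highest shares.

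**Figure D1:**
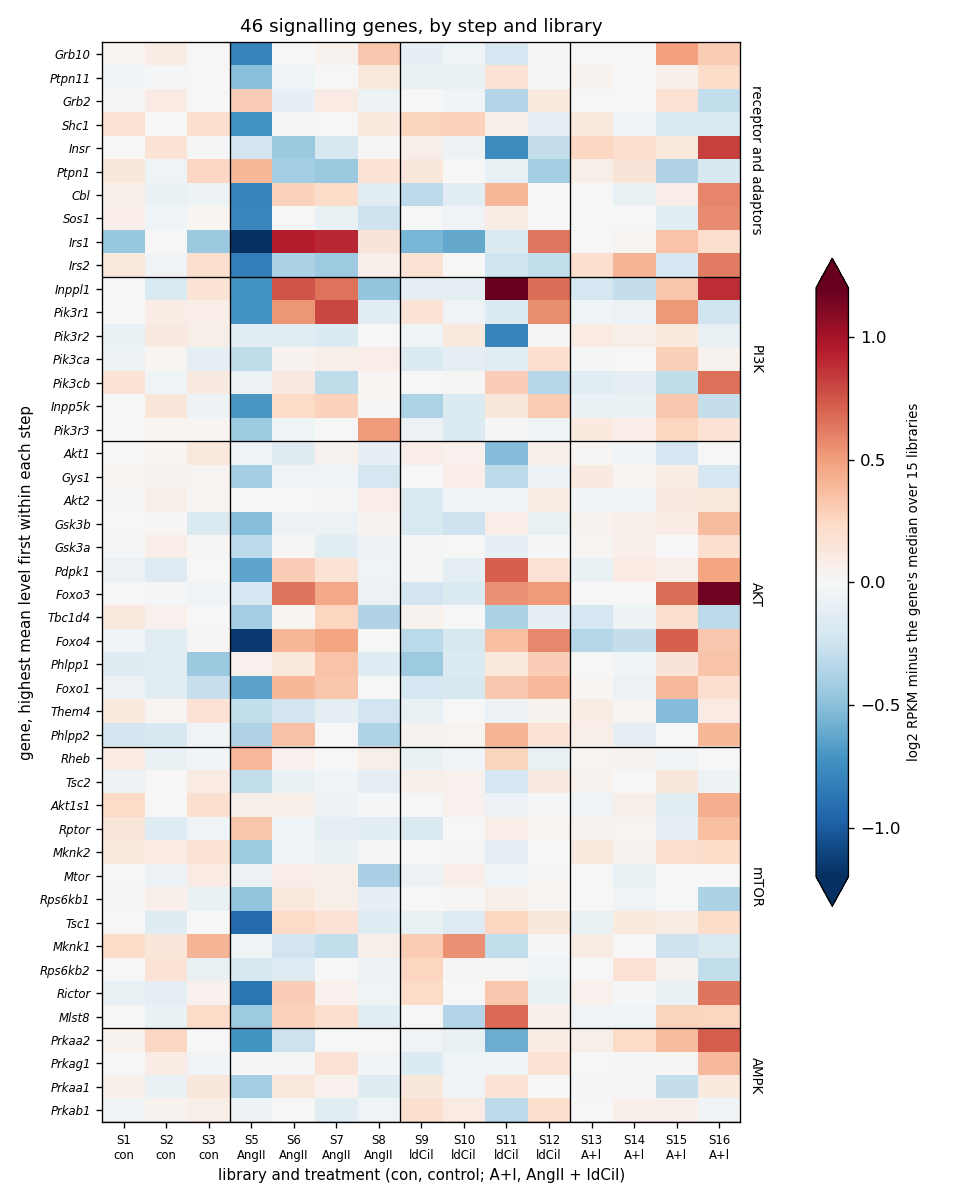
Each cell is the log2 RPKM of 1 member in 1 library minus that gene's median over the 15 libraries, with genes from top to bottom by step and libraries from left to right by treatment, and values past either end of the scale take its end colour. The AngII library S5 is low for most genes, with 17 of the 46 more than 0.5 below their median, and the AngII + ldCil library S16 is high, with 9 more than 0.5 above.

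With AngII, the receptor adaptor Irs2 and the kinases Mknk1 and Mknk2, which phosphorylate the translation factor eIF4E, were lower than in control libraries at an unadjusted p under 0.05, and no member was called. By limma with Benjamini-Hochberg adjustment over all genes tested, 0 of the 46 members reached an adjusted p of 0.05, as did 0% of all genes. The 3 of 46 members at an unadjusted p under 0.05 lie near the share of all genes, 6.04%, and their count is no result about the list. All 3 were lower, where 2.63% of all genes were at that threshold and lower. Over the list 13 genes were higher and 33 lower, with a median log2 fold change of −0.09, where 53.7% of all genes were higher and their median was 0.02. That split depended on the fit. Without S5, 22 members were higher and 24 lower. With S5 kept and the mean of the interferon-induced genes as a covariate, 6 were higher and 40 lower. The step medians with all libraries were −0.16 for the receptor and adaptors, −0.01 for PI3K, −0.01 for AKT, −0.11 for mTOR and −0.11 for AMPK. In the mTOR step, Mknk1 and Mknk2 were the only genes at an unadjusted limma p under 0.05.

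Irs2 was at 4.19, 4.03 and 4.27 log2 RPKM in the control libraries S1, S2 and S3 and at 3.24, 3.69, 3.64 and 4.13 in the AngII libraries S5 to S8. The library S8 lay within the control range and the other AngII libraries below it. The log2 fold change was −0.49 (SE 0.213, unadjusted p = 0.0378 and adjusted p = 0.782 by limma). It was −0.34 with an unadjusted limma p of 0.115 without S5. Irs1, the other docking protein, had values of 3.63, 4.07 and 3.63 in control and 2.88, 5.02, 4.98 and 4.23 in AngII libraries, so that S5 was the lowest and S6 and S7 the highest of all 15. Its log2 fold change was 0.50 (SE 0.421), with a 95% interval of −0.40 to 1.40. Without S5 the difference was 0.97, at an unadjusted limma p of 0.00556, and with the interferon list mean as a covariate it was −0.19.

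Mknk2 was at 5.37, 5.35 and 5.41 in control and 4.82, 5.21, 5.17 and 5.23 in AngII libraries. The groups did not overlap, which held for 5 members, all lower, and for 8.74% of all genes, or 3.68% in the lower direction. Its log2 fold change of −0.27 (SE 0.108, unadjusted p = 0.0264 by limma) was −0.17 without S5, with an unadjusted limma p of 0.0561. Mknk1, at 4.34, 4.26 and 4.52 in control and 4.06, 3.88, 3.82 and 4.18 in AngII libraries, did not overlap either, with a log2 fold change of −0.39 (SE 0.178, unadjusted p = 0.0469 by limma). The range over the 15 fits that each left out 1 library was −0.45 to −0.31, and the unadjusted p was above 0.05 in 11 of them. The other members whose AngII libraries all lay below the control libraries were Prkaa2, Gys1, the muscle glycogen synthase, and Them4, an AKT-binding protein.

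**Figure D2:**
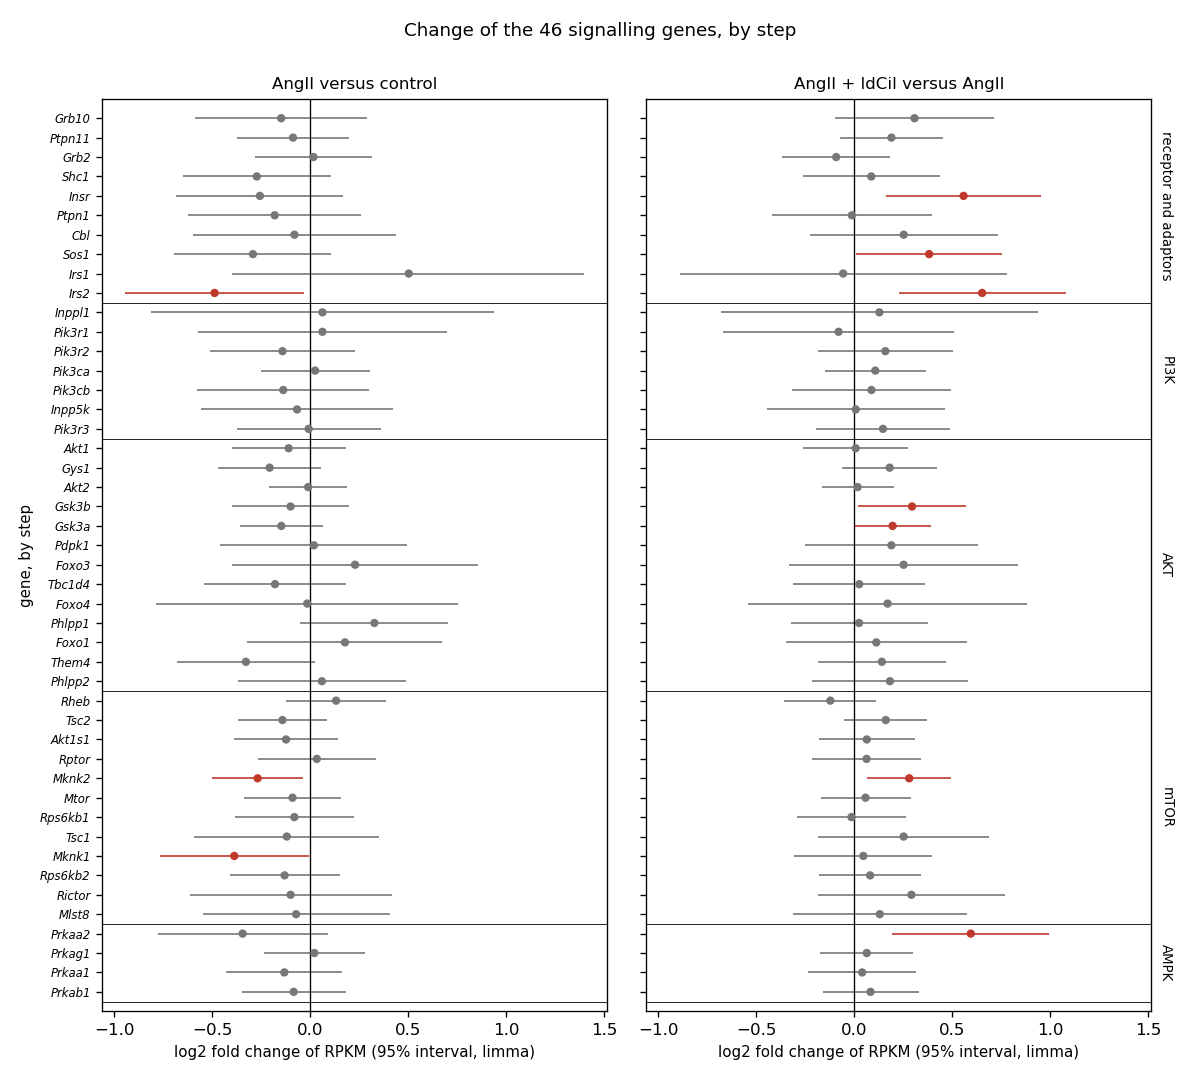
Points are limma log2 fold changes of the 46 members, by step, for AngII against control (left) and AngII + ldCil against AngII (right), and lines are 95% intervals. Red marks an unadjusted p under 0.05, for 3 members at the left, all below 0, and 7 at the right, all above 0, of which none passed adjustment.

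With ldCil alone no member differed from control at an unadjusted limma p under 0.05, against 1.95% of all genes tested, and 0 were called at an adjusted p of 0.05, as for 0% of all genes. The list was split, with 22 members higher and 24 lower and a median log2 fold change of −0.01, where 50.3% of all genes were higher. With the interferon list mean as a covariate it was 11 higher and 35 lower. The member with the largest difference in each step was Insr in the receptor step (−0.30, 95% interval −0.73 to 0.12), Inppl1 in the PI3K step (0.43, −0.44 to 1.31), Phlpp2 in the AKT step (0.32, −0.11 to 0.75), Rictor in the mTOR step (0.17, −0.35 to 0.68) and Prkaa2 in the AMPK step (−0.26, −0.69 to 0.18). Differences smaller than the reach of these intervals were not detectable with these libraries. The ldCil library S11 set several of them: without it Insr stood at −0.14, Inppl1 at 0.16 and Prkaa2 at −0.11. In 4 members the libraries did not overlap with control, 1 higher (Phlpp2) and 3 lower (Grb10, Pik3r3 and Mknk2), against 6.87% of all genes (3.50% higher and 3.37% lower).

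When ldCil was added to AngII, 7 members were higher than with AngII alone at an unadjusted p under 0.05, namely Irs2, Prkaa2, Insr, Mknk2, Gsk3b, Sos1 and Gsk3a, and none was lower. None was called by limma at an adjusted p of 0.05, as 0% of all genes, and the adjusted p of each was 1. The 7 compare with 2.58% of all genes at an unadjusted p under 0.05, 1.61% in the higher direction. This comparison uses the same AngII libraries as the one against control, so a low AngII library moves both, in opposite directions. Over the list 40 members were higher and 6 lower, with a median log2 fold change of 0.12, against 52.4% higher and a median of 0.01 over all genes. It was 32 and 14 without S5, 34 and 12 without S16, and 22 and 24 without both, a pair left out after the values were seen.

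**Figure D3:**
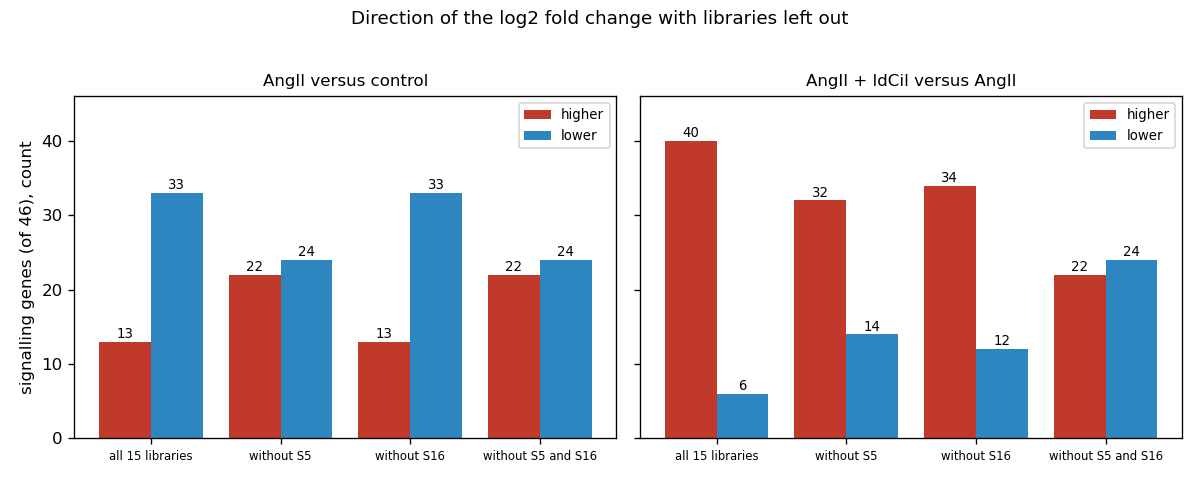
Bars count the members whose log2 fold change was above 0 (red) or below 0 (blue), of 46, for AngII against control (left) and AngII + ldCil against AngII (right), with all libraries and with S5, S16 or both left out. The excess of lower members with AngII, 33 against 13, and of higher members with AngII + ldCil, 40 against 6, went to 24 and 22 and to 22 and 24 once both libraries were out.

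The members whose differences held best when single libraries were left out were Insr, Irs2, Prkaa2 and Mknk2, which stood at an unadjusted p under 0.05 both in AngII + ldCil against AngII and in the AngII by ldCil interaction. In GENCODE M21 on GRCm38, Insr lies on the minus strand at chr8:3122061-3279617, Irs2 at chr8:10984681-11008458, Prkaa2 at chr4:105029874-105109890 and Mknk2 at chr10:80665327-80678112, all on the minus strand too. These genes were picked by these unadjusted p-values, of which none passed adjustment. Insr had no entry among the RefSeq promoters, so its promoter was not searched. For the other 3 the 250 bases before the RefSeq start are printed. They run 5′ to 3′ on the minus strand of GRCm38.p6, with GC boxes (GGGCGG or its reverse complement CCGCCC) in capitals. The windows are chr8:11008930-11009179 for Irs2, chr4:105109899-105110148 for Prkaa2 and chr10:80676294-80676543 for Mknk2.
Irs2: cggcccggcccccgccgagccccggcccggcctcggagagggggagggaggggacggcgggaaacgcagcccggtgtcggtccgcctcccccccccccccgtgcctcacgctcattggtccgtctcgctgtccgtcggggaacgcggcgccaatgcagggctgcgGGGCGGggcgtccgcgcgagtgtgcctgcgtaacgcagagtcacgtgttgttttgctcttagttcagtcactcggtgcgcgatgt
Prkaa2: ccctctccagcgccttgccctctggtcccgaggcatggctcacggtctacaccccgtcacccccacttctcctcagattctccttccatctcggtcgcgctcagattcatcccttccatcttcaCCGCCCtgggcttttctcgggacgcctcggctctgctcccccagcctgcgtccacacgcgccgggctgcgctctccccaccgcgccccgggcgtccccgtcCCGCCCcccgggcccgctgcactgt
Mknk2: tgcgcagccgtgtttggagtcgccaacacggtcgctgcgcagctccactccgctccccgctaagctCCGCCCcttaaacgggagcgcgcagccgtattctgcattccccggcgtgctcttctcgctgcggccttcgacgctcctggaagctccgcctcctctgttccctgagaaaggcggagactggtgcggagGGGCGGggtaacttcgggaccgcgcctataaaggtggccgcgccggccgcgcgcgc
The windows are rich in G and C, at 72.8% for Irs2, 70% for Prkaa2 and 68.4% for Mknk2, and hold 1, 2 and 2 GC boxes. Of the 43 members with a promoter in the RefSeq table, 31 held a GC box in this window, against 32.9% of 27025 promoters, which include those of genes not expressed here. The FOXO motif TGTTTAC, searched on both strands, was in none of the 3 windows and in 1 of the 43 (Akt1), against 3.09% of all promoters. The cAMP response element TGACGTCA, its own reverse complement, was also absent from the 3 and present in 1 of the 43 (Ptpn11), against 1.62%.

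Insr, the insulin receptor, was at 5.46, 5.62 and 5.44 in control, 5.24, 5.02, 5.27 and 5.47 in AngII, 5.53, 5.40, 4.70 and 5.17 in ldCil and 5.71, 5.66, 5.59 and 6.28 in AngII + ldCil libraries, in the order given above. The AngII + ldCil libraries all lay above the AngII libraries, and S16 stood far above the other 14 libraries. Group means were 5.51 ± 0.10 (SD, n = 3), 5.25 ± 0.19, 5.20 ± 0.37 and 5.81 ± 0.32 (n = 4 each). The difference between AngII + ldCil and AngII was 0.56 (SE 0.184, 95% interval 0.17 to 0.95, unadjusted p = 0.00869 by limma), which is 1.47-fold. Over the fits that each left out 1 library it ran from 0.40 without S16 to 0.63, with unadjusted p from 0.00286 to 0.0346.

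Irs2 was at 4.25, 4.07, 3.83 and 3.77 in ldCil and 4.27, 4.48, 3.87 and 4.69 in AngII + ldCil libraries. The groups with and without ldCil under AngII overlapped, since S15 lay below the AngII library S8, while S14 and S16 exceeded the other 13 libraries. The difference was 0.65 (SE 0.197, 95% interval 0.23 to 1.08, unadjusted p = 0.00496 by limma), or 1.57-fold. It ran from 0.51 without S5 to 0.81 without S8.

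Prkaa2, the AMPK catalytic subunit that prevails in heart and skeletal muscle, was at 6.33, 6.54 and 6.29 in control, 5.57, 6.03, 6.28 and 6.28 in AngII, 6.24, 6.20, 5.69 and 6.37 in ldCil and 6.36, 6.51, 6.65 and 7.01 in AngII + ldCil libraries. S5 and the ldCil library S11 were lowest and S16 highest, and AngII + ldCil lay wholly above AngII. The difference was 0.60 (SE 0.188, 95% interval 0.19 to 0.997, unadjusted p = 0.00658 by limma), or 1.51-fold, and 0.44 without S5. The other catalytic subunit, Prkaa1, had values of 4.75, 4.61 and 4.82 in control, 4.28, 4.82, 4.74 and 4.54 in AngII, 4.82, 4.65, 4.85 and 4.69 in ldCil and 4.66, 4.67, 4.40 and 4.81 in AngII + ldCil libraries. Its groups overlapped in every comparison, and its difference between AngII + ldCil and AngII was 0.04 with a 95% interval of −0.23 to 0.32.

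Mknk2 was at 5.24, 5.23, 5.13 and 5.25 in ldCil and 5.37, 5.29, 5.44 and 5.46 in AngII + ldCil libraries. All AngII + ldCil libraries lay above all AngII libraries and also above all ldCil libraries. The difference from AngII was 0.28 (SE 0.10, 95% interval 0.07 to 0.50, unadjusted p = 0.0137 by limma), or 1.22-fold, and 0.19 without S5. Mknk1 did not share it, with 4.42, 4.66, 3.82 and 4.09 in ldCil and 4.20, 4.11, 3.87 and 3.94 in AngII + ldCil libraries and a difference from AngII of 0.05 (95% interval −0.31 to 0.40), and Mknk1 minus Mknk2 differed between the groups by −0.23 with an exact permutation p of 0.229.

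**Figure D4:**
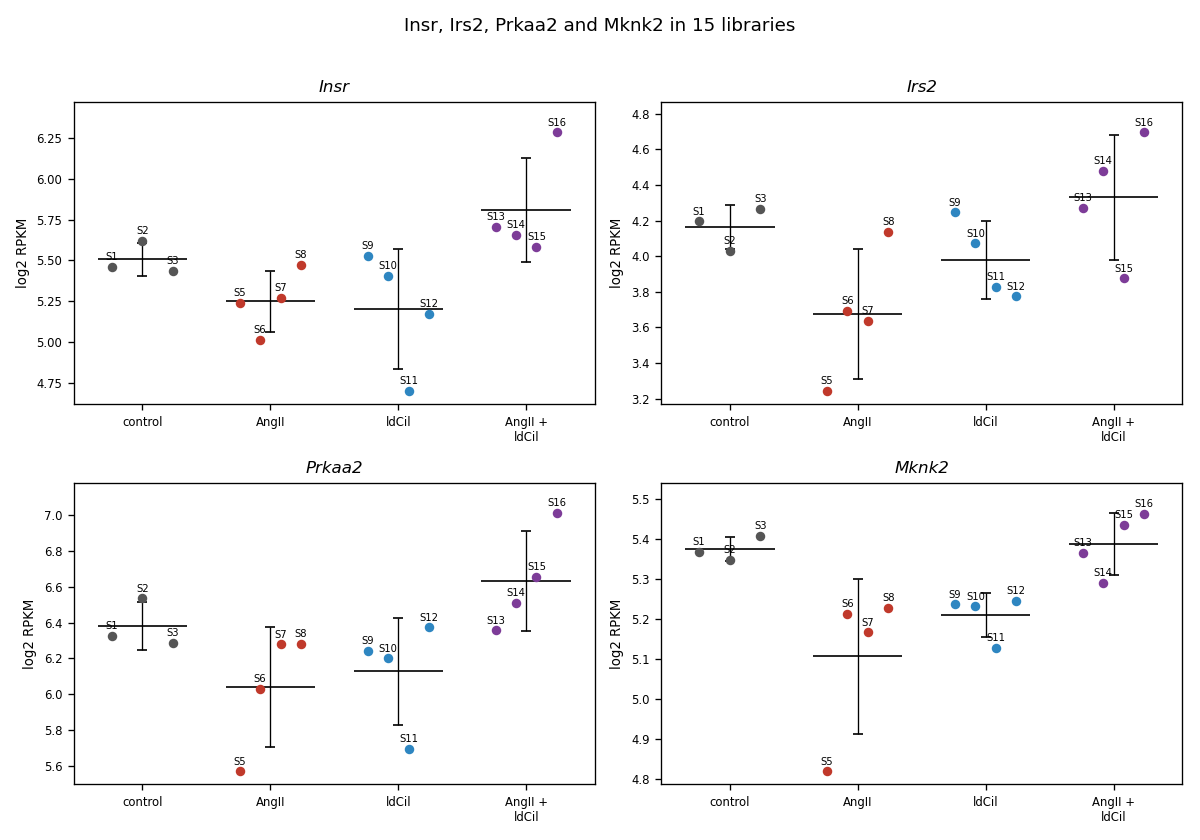
Points are the log2 RPKM of Insr, Irs2, Prkaa2 and Mknk2 in each library, by treatment, with the group mean (horizontal line) and 1 SD (bars). The AngII + ldCil libraries lie above the AngII libraries for Insr, Prkaa2 and Mknk2, while for Irs2 S15 falls below S8.

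For these 4 genes the unadjusted limma p stayed under 0.05 in each of the 15 fits without 1 library. Where a control or ldCil library was left out, the difference itself could not change. The genes were also picked by p-values from these same libraries. Without S5 and S16 together the differences were 0.40 for Insr, 0.39 for Irs2, 0.31 for Prkaa2 and 0.16 for Mknk2, with unadjusted limma p of 0.0515, 0.0579, 0.0752 and 0.0567. Without the 5 libraries high in interferon genes they were 0.56, 0.51, 0.44 and 0.19. With the interferon list mean as a covariate they were 0.59, 0.67, 0.57 and 0.27. Libraries that do not overlap were seen in 4 members in this comparison, Insr, Prkaa2, Mknk2 and Gsk3b, all higher, against 1.55% of all genes and 0.965% in the higher direction.

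Of the other 3 members, Gsk3b and Gsk3a encode the kinase that AKT restrains to allow glycogen synthesis. Gsk3b was at 5.65, 5.67 and 5.48 in control, 5.14, 5.59, 5.58 and 5.69 in AngII, 5.47, 5.40, 5.73 and 5.57 in ldCil and 5.70, 5.71, 5.74 and 6.03 in AngII + ldCil libraries. Gsk3a was at 5.53, 5.64 and 5.57, 5.24, 5.57, 5.43 and 5.49, 5.53, 5.56, 5.46 and 5.54 and 5.59, 5.62, 5.56 and 5.76 in the same order. For both, S5 was the lowest and S16 the highest of all libraries. The differences between AngII + ldCil and AngII were 0.30 (SE 0.13) and 0.20 (SE 0.0912), at unadjusted limma p of 0.0384 and 0.0483. Sos1, the exchange factor that links the adaptors to RAS, was at 4.27, 4.14 and 4.21, 3.41, 4.19, 4.11 and 3.94, 4.19, 4.15, 4.28 and 4.19 and 4.19, 4.19, 4.05 and 4.76, and its difference was 0.38 (SE 0.173, unadjusted p = 0.0438 by limma). S5 was again the lowest library and S16 the highest, while the other 13 lay between 3.94 and 4.28. Without S5 the differences were 0.175 for Gsk3b, 0.132 for Gsk3a and 0.214 for Sos1, with unadjusted p of 0.13, 0.122 and 0.161.

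The interaction asked whether the difference with ldCil was another one in cells with AngII than in cells without it. There were 4 members at an unadjusted p under 0.05, all higher, against 3.86% of all genes and 1.84% in that direction, and none was called by limma at an adjusted p of 0.05, as 0% of all genes. Insr had an interaction of 0.86 (SE 0.271, unadjusted p = 0.00643 by limma), Prkaa2 of 0.85 (SE 0.277, unadjusted p = 0.00791), Irs2 of 0.84 (SE 0.291, unadjusted p = 0.0118) and Mknk2 of 0.45 (SE 0.148, unadjusted p = 0.00893), with an adjusted p of 0.958 each. In these genes each agent alone gave a lower mean than control, at −0.26 and −0.30 for Insr and −0.34 and −0.26 for Prkaa2. Without S11 the ldCil values were −0.14 for Insr and −0.11 for Prkaa2. With both agents the means were above control by 0.30 for Insr, 0.17 for Irs2, 0.25 for Prkaa2 and 0.01 for Mknk2. The 95% intervals of these both-agent differences, and of the single-agent values for Insr and Prkaa2, all held 0. Over the list the interaction was above 0 in 37 members and below 0 in 9, against 52.2% of all genes above 0. It was 29 and 17 without S5, 31 and 15 without S16, and 25 and 21 without both. The interaction uses all 4 groups and so shares the AngII and AngII + ldCil libraries with the comparisons above. Pik3r2 (0.37) and Gsk3b (0.35) had the largest interaction in the PI3K and AKT steps, with unadjusted limma p of 0.137 and 0.0851.

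Between AngII + ldCil and control, 0 members were at an unadjusted limma p under 0.05, against 5.62% of all genes, and 0 were called at an adjusted p of 0.05, as 0% of all genes. Of the list, 30 were higher and 16 lower, where 58.4% of all genes were higher. Insr was 5.81 ± 0.32 against 5.51 ± 0.10, with a difference whose 95% interval was −0.12 to 0.73, and Irs2 4.33 ± 0.35 against 4.16 ± 0.12, with −0.29 to 0.62. The member with the largest difference in each step was Irs1 (0.45), Inppl1 (0.19), Foxo3 (0.48), Mknk1 (−0.34) and Prkaa2 (0.25). In 7 members the libraries did not overlap, against 13.5% of all genes (7.35% higher and 6.11% lower). These were Irs1, Ptpn11, Pik3r3, Phlpp1, Gsk3b and Foxo3, which were higher, and Mknk1, which was lower.

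For the core enzymes of PI3K and AKT the libraries of different groups overlapped. Pik3ca, the catalytic subunit alpha, was at 4.71, 4.81 and 4.67 in control, 4.48, 4.83, 4.85 and 4.86 in AngII, 4.62, 4.67, 4.65 and 4.99 in ldCil and 4.77, 4.78, 5.07 and 4.83 in AngII + ldCil libraries. S5 was lowest, and the groups overlapped in every comparison. Akt1 was at 6.97, 6.999 and 7.09, 6.93, 6.83, 7.01 and 6.87, 7.06, 7.03, 6.46 and 7.03 and 6.99, 6.94, 6.77 and 6.97 in the same order, with S11 the lowest library. Akt2 was at 5.89, 5.97 and 5.93, 5.90, 5.90, 5.89 and 5.98, 5.73, 5.85, 5.87 and 5.99 and 5.87, 5.84, 6.01 and 6.03, a total range of 0.299 over 15 libraries. For AngII against control, the 95% interval of the log2 fold change was −0.40 to 0.18 for Akt1 and −0.21 to 0.19 for Akt2. For AngII + ldCil against AngII it was −0.26 to 0.28 and −0.17 to 0.20.

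The regulatory subunit Pik3r1 and the FOXO factors varied more within treatments than between them, as did most members. Pik3r1 was at 4.79, 4.87 and 4.86 in control, 4.06, 5.31, 5.59 and 4.65 in AngII, 4.95, 4.74, 4.62 and 5.34 in ldCil and 4.73, 4.71, 5.30 and 4.54 in AngII + ldCil libraries, and groups accounted for 1.09% of its variance. Foxo1 was at 3.61, 3.54 and 3.39, 3.03, 4.07, 4.0 and 3.67, 3.46, 3.48, 3.99 and 4.06 and 3.69, 3.60, 4.06 and 3.87, and Foxo3 at 4.92, 4.90 and 4.88, 4.72, 5.57, 5.38 and 4.85, 4.69, 4.75, 5.47 and 5.44 and 4.93, 4.92, 5.59 and 6.09. The FOXO genes encode transcription factors that AKT keeps out of the nucleus. For all 3 genes, S6, S7, S12 and S15, which come from 3 treatment groups, exceeded the control libraries. These 4 libraries had interferon means of −1.92, −1.77, −1.58 and −1.86, and S11 and S16, at −1.86 and −1.74, exceeded the control libraries for Foxo1 and Foxo3 and not for Pik3r1.

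**Figure D5:**
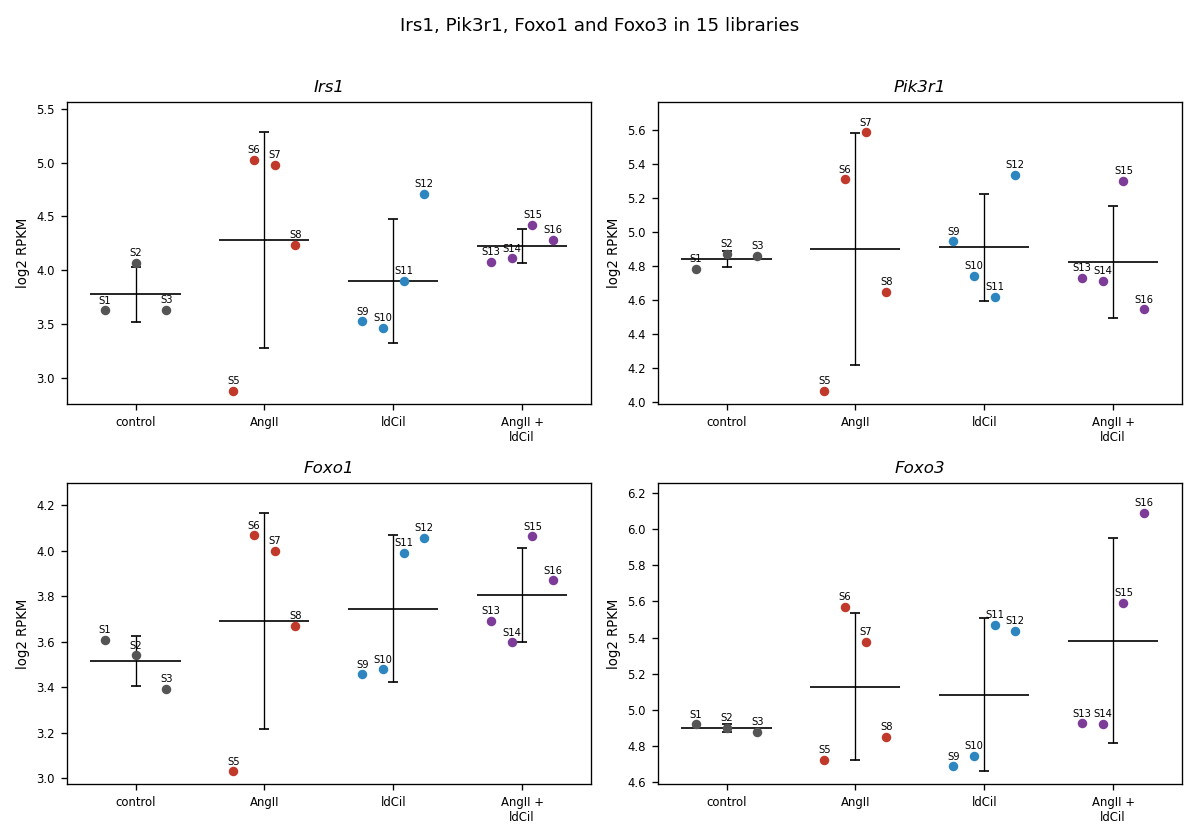
Points are the log2 RPKM of Irs1, Pik3r1, Foxo1 and Foxo3 in each library, by treatment, with the group mean (horizontal line) and 1 SD (bars). S6, S7, S12 and S15 are high and S5 is low in all 4 panels, and the spread within the AngII group, an SD of 1.00 for Irs1 and 0.69 for Pik3r1, exceeds the distance between any 2 group means in those panels.

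In the mTOR step the SD over the 15 libraries was 0.119 for Mtor, the kinase itself, 0.162 for Rptor and 0.120 for Tsc2. It was higher for Tsc1 (0.289), Mlst8 (0.275) and Rictor, which defines mTOR complex 2 (0.323). Mtor was at 5.13, 5.05 and 5.22 in control, 5.05, 5.20, 5.20 and 4.73 in AngII, 5.05, 5.21, 5.07 and 5.14 in ldCil and 5.13, 5.04, 5.12 and 5.13 in AngII + ldCil libraries, with S8 the lowest. Rptor, which defines mTOR complex 1, was at 5.46, 5.16 and 5.26, 5.64, 5.28, 5.20 and 5.18, 5.14, 5.31, 5.39 and 5.34 and 5.35, 5.34, 5.19 and 5.67, and S5 and S16 were its highest libraries. Tsc2, part of the complex that shuts Rheb off, was at 5.48, 5.55 and 5.64, 5.25, 5.47, 5.52 and 5.43, 5.61, 5.60, 5.33 and 5.65 and 5.59, 5.56, 5.69 and 5.48. Groups overlapped for all 3 genes in every comparison. The 95% intervals of the AngII + ldCil against AngII difference were −0.17 to 0.29 for Mtor, −0.22 to 0.34 for Rptor and −0.05 to 0.37 for Tsc2.

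The wider pathway was read from a list of 83 other genes, of which 77 were tested, from Eif4b at 7.40 down to Sh2b2 at 0.03. None was called by limma at an adjusted p of 0.05 in any comparison. With AngII, 6 of the 77 were at an unadjusted p under 0.05, against 6.04% of all genes. Lower were Trib3, a pseudokinase that binds AKT (−1.55, SE 0.385), Eif4b, a translation factor that S6 kinase phosphorylates (−0.40, SE 0.134), the phosphatase Ptprf (−0.46, SE 0.178) and the GTPase Rragd (−0.39, SE 0.179). Higher were Rhebl1, a relative of Rheb (0.81, SE 0.372), and Prkag3, an AMPK gamma subunit (1.01, SE 0.43). Eif4b was at 7.58, 7.61 and 7.59 in control and 7.003, 7.29, 7.17 and 7.29 in AngII libraries, which did not overlap. With ldCil the 1 gene was Rhebl1 (0.83), against 1.95% of all genes, and with AngII + ldCil against AngII the 1 gene was Fnip2, a folliculin partner (0.41, SE 0.172), against 2.58%. Between AngII + ldCil and control there were 6, against 5.62% of all genes, with Igf1r, the receptor for insulin-like growth factor (0.33), and Ddit4l, an inhibitor of mTOR complex 1 (0.83), higher, and Socs3 (−1.26), Trib3 (−1.04), Pik3r5 (−0.51) and Ptprf (−0.43) lower. In the interaction Rragd (0.58), Pik3r5 (−0.73) and Prkag3 (−1.46) were at an unadjusted p under 0.05, against 3.86% of all genes. The counts lie near the shares over all genes and are no result about the list.

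Irs2 and Insr are also among the genes that FOXO factors are known to induce when insulin signalling is low. Of 20 such genes 16 were tested and none was called by limma at an adjusted p of 0.05. In AngII + ldCil against AngII, 12 were higher and 4 lower, where 52.4% of all genes were higher. The 2 at an unadjusted p under 0.05, against 2.58% of all genes, were Irs2 and Insr, which are members described above and so add nothing independent. In AngII against control Irs2 was the 1 gene, with 8 higher and 8 lower. In the interaction Klf15, a cardiac transcription factor, joined them (0.87, SE 0.404, unadjusted p = 0.0491 by limma). Klf15 was at 2.29, 2.32 and 2.24 in control, 2.14, 1.70, 1.92 and 2.01 in AngII, 2.29, 1.93, 0.89 and 1.91 in ldCil and 2.14, 2.60, 2.67 and 1.73 in AngII + ldCil libraries, and S11 was far below the others.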

How the data were processed

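Poly(A)-captured RNA of cultured mouse cardiomyocytes was sequenced on an Illumina NextSeq 500 in 15 libraries. The submitters' processing notes name HISAT2, HTSeq and the mm10 (GRCm38) genome. The sources used here do not give tool versions, annotation release or strandedness. The authors deposited log2 RPKM values after cqn for 14337 genes. No read counts were analysed here. GENCODE M21 gave symbols for 14329 identifiers. In R 4.3.3, limma 3.58.1 fitted 1 mean per group over the 15 libraries, with empirical Bayes moderation and a trend on mean expression, to 12848 genes that passed a minimum mean of 0 log2 RPKM. Tests are 2-sided, and p-values were adjusted over every tested gene (Benjamini-Hochberg, threshold 0.05). The fit was tested on simulated data. Within-library differences of related genes were tested by exact permutation. No 2 libraries held identical values, and correlations over genes were 0.888 to 0.992 within groups and 0.879 to 0.993 between groups. The members and the gene lists were chosen with earlier results of these data known. Members were named at an unadjusted p under 0.05, as the largest difference of a step, or as key nodes of the pathway, and others whose libraries did not overlap were named after their values were seen. Alternatives were other filters, offsets, normalisations, moderations and library weights, a fit of only the groups compared, an interferon covariate, and libraries left out. S5 with S16, and S5 with S11 and S16, were left out together after the values were seen, and the motifs were chosen then too.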

Additional observations from a re-analysis of the deposited data

Results flagged for a closer look

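In each group of 4 libraries, a member's highest or lowest library was checked for standing apart from the other 3, by Dixon's test at the 95% level. This picked 14 of 138 cases, where chance gives about 1 in 20 groups, or 6.9. Groups of 3 (control) were not checked. Of the 14, 3 were in S5, 4 in S11 and 3 in S16.

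With AngII, S5 was low for Shc1, at 4.824 log2 RPKM against 5.54 to 5.67 in the other libraries, for Pik3ca, at 4.477 against 4.83 to 4.86, and for Mknk2, at 4.82 against 5.17 to 5.23. S8 was high for Akt2, at 5.981 against 5.89 to 5.90. With ldCil, S11 was low for Akt1, at 6.456 against 7.03 to 7.06, for Tsc2, at 5.333 against 5.60 to 5.65, and for Mknk2, at 5.128 against 5.23 to 5.25. S11 was high for Rheb, at 5.887 against 5.53 to 5.59, and S12 for Pik3ca, at 4.986 against 4.62 to 4.67.

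With AngII + ldCil, S16 was high for Gsk3b, at 6.031 against 5.70 to 5.74. It was also high for Prkag1, an AMPK gamma subunit, at 5.779 against 5.37 to 5.41. S16 was low for Rps6kb1, at 4.412 against 4.75 to 4.79. S15 was low for Them4, at 1.846 against 2.39 to 2.46, and S14 for Mtor, at 5.042 against 5.12 to 5.13. No interaction of a member passed adjustment, and 4 were at an unadjusted limma p under 0.05.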

How the results depend on the processing

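In each of the 15 fits that left out 1 library, the members called at an adjusted p of 0.05 by limma ranged from 0 to 0 in each of the 5 comparisons, as did the related pairs called. Over those fits the members at an unadjusted p under 0.05 ranged from 0 to 4 in AngII against control, from 4 to 8 in AngII + ldCil against AngII and from 4 to 6 in the interaction. Library weights ranged from 0.113 for S5 to 7.01 for S1. With them, 16 of the 46 members were called in AngII against control, beside 6245 of the 12848 genes tested. In AngII + ldCil against AngII 12 members were called, beside 4048 of all genes, and in the interaction 7, beside 2387. In each of these comparisons the share of members called was below the share of all genes. In AngII + ldCil against control the weights called 0 members and 2311 of all genes. With weights 23 members were higher and 23 lower in each of these 4 comparisons, and 13 and 33 in ldCil against control. No other alternative called a member. There were 922 alternative values of the 32 log2 fold changes named by the rule. Of these, 896 kept their direction and side of the threshold, 14 passed the threshold (all with library weights) and 12 changed sign. None of the 32 passed the threshold in the main fit, so outside library weights the 896 count a kept sign alone. Some alternatives cannot change a fold change, such as leaving out a library of a group not compared. With the interferon covariate, Irs1 was at −0.19 in AngII against control. In AngII + ldCil against control with that covariate, Irs1 was at −0.42, Inppl1 at −0.58 and Foxo3 at −0.0572. There 13 members were higher and 33 lower. The interferon means of those groups did not overlap, so the covariate and the treatment cannot be told apart there. With library weights, Inppl1 was at −0.0215 in ldCil against control and −0.20 in AngII + ldCil against control, and Rictor at −0.0687 in AngII + ldCil against AngII. Without S5 and S16, with or without S11, Rictor was at −0.12 there, and Inppl1 at −0.0432 in AngII + ldCil against control, as also without S16 alone. Over the fits without 1 library, that Inppl1 value ranged from −0.0432 to 0.349. The cause of these changes was not tested. Without the 5 libraries high in interferon genes, control is S2 alone, assumed to vary like the other groups. No paired analysis was possible because the labels give no replicate numbers shared between groups. Depth is unknown.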
